A study of Mus musculus with 8 samples.

Results

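The 1209 array probes named by the accession of a single expressed sequence tag (EST) or cDNA were examined in whole hearts of mice with and without Klf5 in cardiomyocytes. They were chosen by name: spots not marked as controls whose probe name does not begin with one of the vendor's catalogue, negative-control or long intergenic noncoding RNA prefixes. They make up 1209 of 59709 probes on the array, and each has 1 spot per array.

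The study compared cardiac RNA with and without cardiomyocyte Klf5, which encodes a transcription factor of the Kruppel-like family. The 4 control mice were KLF5 floxed and lacked Cre recombinase, and the 4 knockout mice, labelled aMHC-KLF5-/-, expressed Cre in cardiomyocytes. All 8 were male, 8 to 12 weeks old and studied at basal levels, and each array holds RNA from the whole heart of 1 mouse. The aMHC promoter (alpha myosin heavy chain) is active in cardiomyocytes, so other cells of the heart keep Klf5. The control mice carried no Cre, so effects of Cre and of the deletion cannot be told apart. In whole hearts, fewer cells of a type and less RNA per cell cannot be told apart either.

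An EST is a single read from 1 end of a cloned cDNA, and a full-length cDNA entry records the whole clone. Such records were collected in large numbers before genome annotation was complete, and an accession may stand for a coding transcript, an untranslated end, a noncoding RNA or an unspliced fragment. The files give no gene name for these probes. Of the 1209 accessions, 0 matched a symbol, synonym or accession of the RefSeq table (GRCm38.p6), and 0 are in the authors' value table, so they are named by accession. Cell type markers and Klf5 could not be read from them, and neither the tissue nor the deletion was checked here. The accession prefix shows how a record entered the databases. AK and BC mark cDNA collections (109 probes), 342 probes have prefixes of ESTs deposited at DDBJ, such as BY, BB and AV, and 692 have prefixes of GenBank ESTs, such as AA, AI and CK. A further 49 have the EMBL prefixes CR and BX, and 17 are direct submissions, such as AF and U.

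A spot was taken as detected when the extraction software marked it well above background. Between 379 and 465 accession probes were detected on the control arrays (mean 422.5 ± 35.9, SD, n = 4) and between 401 and 704 on the knockout arrays (mean 561.5 ± 125.9, SD, n = 4). Knockout replicates 1, 2 and 3, with 545, 704 and 596 detected accession probes, lay above every control array. Knockout replicate 4, with 401, lay among the controls. The lowest processed signal on these arrays moved the other way. It was 6.85, 3.17 and 5.28 on knockout replicates 1, 2 and 3, 14.5 on knockout replicate 4 and 8.76 to 14.1 on the controls, and the part of this floor in the detection counts was not tested. Over all 59709 probes detection followed the same order, from 46.6% to 52.7% on control arrays and from 47.1% to 72.5% on knockout arrays. The first part of the header's array position code never coincided between control and knockout arrays, so it cannot be told apart from genotype. The second part equals the replicate number on all 8 arrays. All 8 arrays share 1 scan time.

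**Figure D1:**
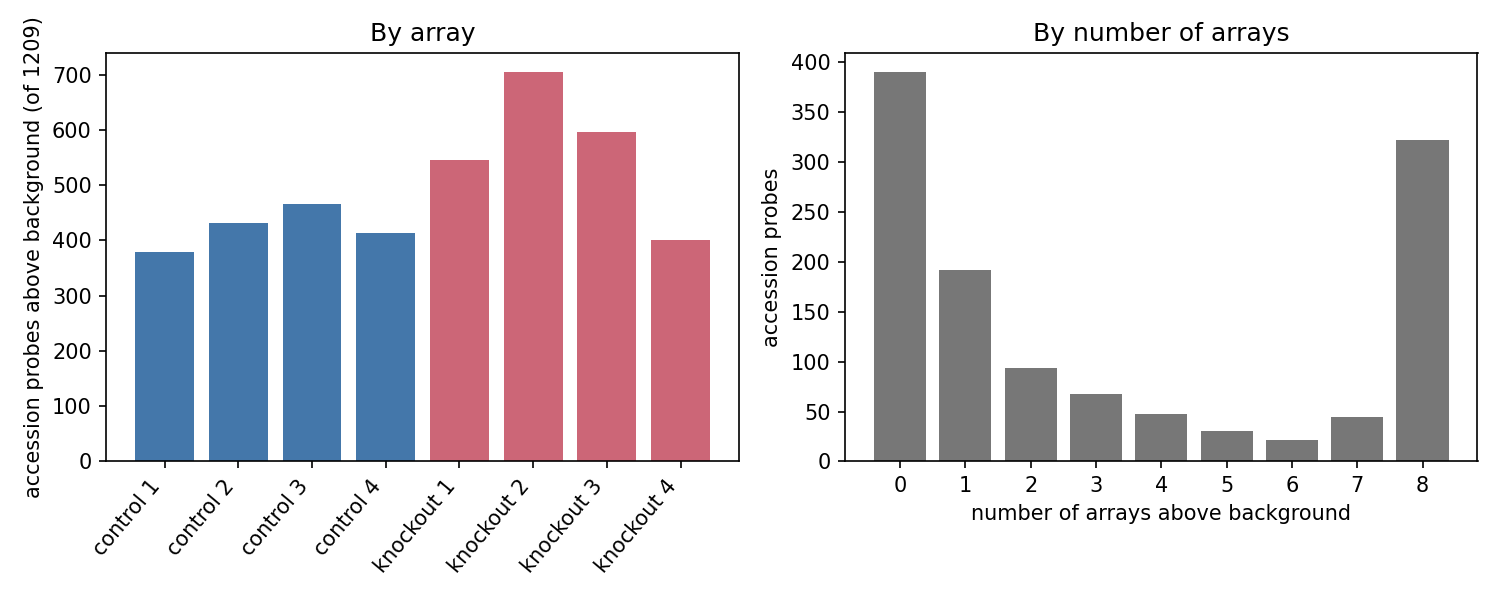
Left, bars give the number of the 1209 accession probes well above background on each array, with controls in blue and knockouts in red. Right, bars give the number of accession probes by how many of the 8 arrays detected them: 390 were detected on none and 322 on all 8.

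Detection was often all or none. Of the 1209 accession probes, 322 (26.6%) were detected on all 8 arrays and 390 (32.3%) on none. The remaining 497 were seen on 1 to 7 arrays, with 192 on a single array. Over all probes of the array 40.8% were detected on all 8 arrays and 21.4% on none. The exon probes for long intergenic noncoding RNAs stood at 29.2% and 28.2%, and the mouse-locus noncoding RNA probes at 17.1% and 38.6%. Whether the accession probes differ from these classes was not tested.

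Detection also varied with the kind of record. Probes for cDNA collections were detected on all 8 arrays in 49 of 109 cases (45%), DDBJ ESTs in 105 of 342 (30.7%), GenBank ESTs in 145 of 692 (21.0%), EMBL records in 13 of 49 (26.5%) and direct submissions in 10 of 17 (58.8%). Among DDBJ ESTs the AV prefix reached 27 of 50 (54.0%) and BB 29 of 70 (41.4%), whereas BY reached 34 of 143 (23.8%). Among GenBank ESTs the AI prefix reached 11 of 82 (13.4%) and CK 8 of 54 (14.8%). Detected members came from every kind of record, and these shares are descriptions with no test.

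Levels are given as log2 of the processed signal minus the array's 75th percentile, so that 0 is that percentile. It lay between 298.4 and 354.6 signal units on the 8 arrays. Probes differ in how they bind, so the signals of different probes do not rank their transcripts.

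The 12 accession probes of highest signal were AV131371, BY652007, AK215547, BB306094, AK216629, BY394568, AV038163, AK188366, AK198651, AV319250, BB123311 and AK210533, of which 7 are DDBJ ESTs and 5 are AK cDNAs. AV131371 had levels of 9.79, 9.47, 9.58 and 9.89 in controls and of 9.82, 9.69, 9.56 and 9.55 in knockout hearts. Its processed signal ran from 228598 to 296227 units, and no spot on any array was saturated. The knockout values lay within the range of the controls.

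BY652007 had levels of 9.36, 9.17, 9.31 and 9.31 in controls and of 9.37, 9.31, 9.19 and 9.29 in knockout hearts. AK198651 had levels of 8.58, 8.45, 8.54 and 8.63 in controls and of 8.55, 8.59, 8.54 and 8.50 in knockout hearts, a range of 0.18 over the 8 arrays. These were among the steadiest of the 12, and AV038163 was the least steady. AV038163 had levels of 8.21, 9.0, 8.66 and 8.68 in controls and of 8.66, 8.99, 8.01 and 8.68 in knockout hearts, a range of 0.99, with its low arrays 1 in each group. Differences over the 12, knockout minus control, ran from -0.05 to 0.05 on the log2 scale with SEs of 0.08 to 0.24, and all 12 had overlapping groups.

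A probe was tested where all usable arrays of the control group, of the knockout group or of both detected it, which kept 392 accession probes among 27878 probes of the array. Of the 817 not tested, 427 were detected on at least 1 array and 390 on none. The 392 consist of 322 detected on all 8 arrays, 58 that passed through the knockout arrays alone, 11 that passed through the control arrays alone and 1 with a flagged spot left out. Passing through 1 group favours members that are higher there, so directions are read from the 322.

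No accession probe passed the test between knockout and control hearts. Of 392, 0 were called at a Benjamini-Hochberg adjusted p under 0.05 in limma, where 0.14% of all tested probes were called, and the ordinary pooled test also called 0. The smallest limma adjusted p was 0.113. At an unadjusted p under 0.05 limma gave 35 higher and 7 lower in knockout hearts, where 5.37% of all tested probes were higher and 2.69% lower, and the ordinary test gave 28 and 6. At the background share a set of this size holds fewer than 1 call, so the count of 0 does not set these probes apart.

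Of the 322 accession probes detected on all 8 arrays, limma called 0 at an adjusted p under 0.05, against 0.0493% of all probes detected on all 8 arrays. Among the 322, 20 (6.21%) were higher and 4 (1.24%) lower in knockout hearts at an unadjusted p under 0.05 in limma. Over all 24341 tested probes detected on all 8 arrays, 3.53% were higher and 2.58% lower. The direction of this count was not the same under every setting. With median centring of each array it was 10 higher and 11 lower, and over all 392 it was 23 and 14 in place of 35 and 7. Median centring also moved all 27878 tested probes, from 1498 higher and 749 lower to 929 and 1381. Among the 322 it was 17 and 4 with normexp background correction and 17 and 6 with quantile normalization. With a percentile taken over the probes that all arrays detected it was 22 and 1. Over all 27878 tested probes the counts were 1149 higher and 819 lower with normexp and 1382 and 727 with quantile normalization. With that percentile they were 1943 and 538, so the whole array moved with the setting too. The median difference of the 322 was -0.01 on the log2 scale, as was that of all probes detected on all 8 arrays. With 1 array left out, the counts are of accession probes detected on all arrays that remain, a set that can be larger than the 322. In place of 20, there were 13 higher without control replicate 3 or knockout replicate 3, and 11 without knockout replicate 4. In place of 4, there were 7 lower without control replicate 2 or knockout replicate 4, and 6 without control replicate 3 or knockout replicate 2. Over all tested probes, detected on all arrays or not, counts also moved. They were 1426 higher and 695 lower without control replicate 2, and 1324 and 741 without control replicate 3. Without knockout replicates 2, 3 and 4 they were 1260 and 785, 1526 and 933, and 1870 and 488.

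The groups did not overlap, with knockout higher, in 13 of the 322 (4.04%, against 2.68% of all probes detected on all 8 arrays), and with knockout lower in 4 (1.24%, against 1.7%). Most differences were small. Of the 322, 298 lay within 0.5 of 0 on the log2 scale. The median SD among hearts of a group was 0.18 in controls and 0.19 in knockouts, with a median SE of the difference of 0.14. Repeated spots of 1 probe on the same array had a median SD of 0.05 (0.04 to 0.38). This was measured on 14 other probes that the array repeats in 20 spots each, all detected.

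**Figure D2:**
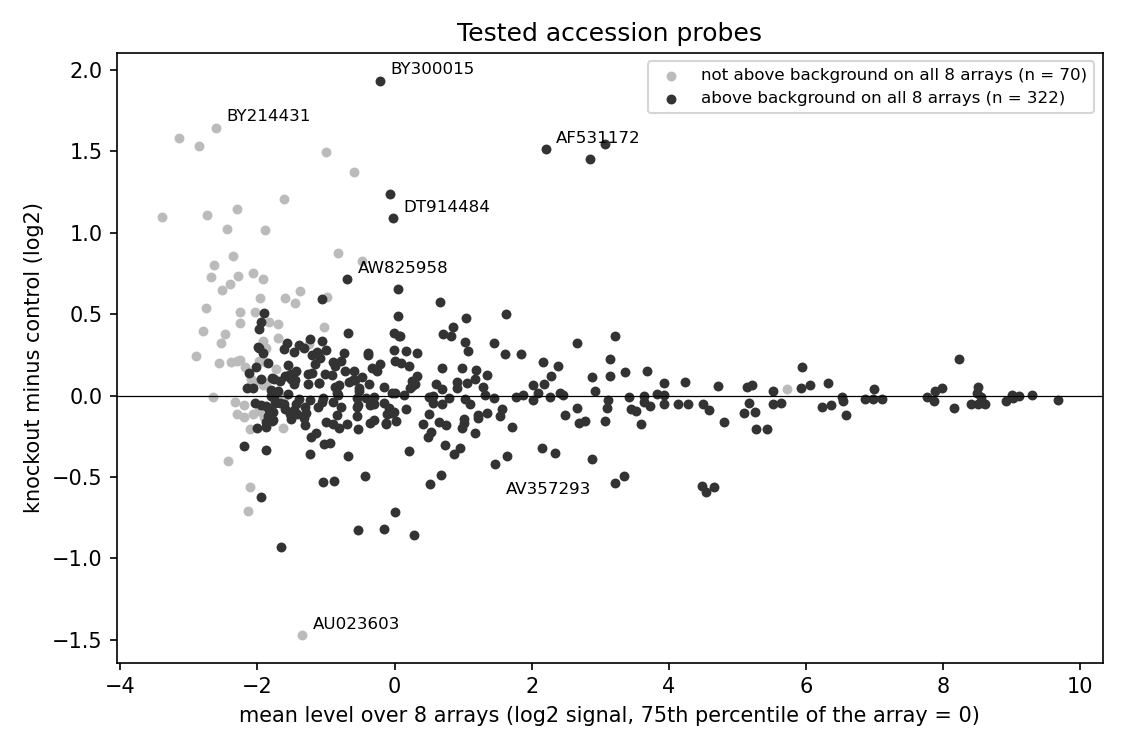
The difference between knockout and control hearts (log2) is plotted against the mean level over 8 arrays for the 392 tested accession probes. Black points are the 322 detected on all 8 arrays and grey points the other 70. The highest black point is BY300015, at 1.93.

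AW825958, a GenBank EST, had the smallest p of the 322. Its levels were -1.36, -1.05, -0.92 and -0.87 in controls and -0.40, -0.33, -0.31 and -0.30 in knockout hearts. Every knockout heart lay above every control, and the 4 knockout values were closer together than the controls. The difference was 0.71 with an SE of 0.12 and a limma adjusted p of 0.114 (range over the alternatives 0.0744 to 0.293).

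DT914484, another GenBank EST, had levels of -0.67, -0.95, -0.65 and 0.00 in controls and of 0.34, 0.44, 0.44 and 0.87 in knockout hearts. The groups did not overlap, and control replicate 4 lay nearest to the knockouts. The difference was 1.09 (2.13-fold) with an SE of 0.21 and a limma adjusted p of 0.183 (range 0.0437 to 0.434). Without control replicate 4 it was 1.28 with a limma adjusted p of 0.0437, the only setting of those run in which it was called.

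AF531172, a direct submission, had levels of 0.37, 2.28, 1.94 and 1.21 in controls and of 2.83, 2.78, 2.93 and 3.32 in knockout hearts. The knockout hearts were close together and all above the controls, which were widely spread. The difference was 1.51 (2.86-fold) with an SE of 0.39 and a limma adjusted p of 0.355 (range 0.261 to 0.610).

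AV271283, a DDBJ EST, had levels of -1.14, -0.95, 0.31 and -0.95 in controls and of 0.60, 0.73, 0.15 and 0.73 in knockout hearts. Control replicate 3 lay among the knockout hearts and the other 3 controls lay below all of them. The difference was 1.24 with an SE of 0.32 and a limma adjusted p of 0.368 (range 0.0192 to 0.610). Without control replicate 3 it was 1.57 with a limma adjusted p of 0.0192, and it was called in no other setting run.

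CR522145, an EMBL record, had levels of -1.45, -1.28, -1.45 and -1.22 in controls and of -0.62, -0.85, -0.90 and -0.65 in knockout hearts, a difference of 0.59 with an SE of 0.11 and a limma adjusted p of 0.140 (range 0.109 to 0.360). Its groups did not overlap. CK383817, BU939086 and CO803150 completed the 8 higher probes of smallest p, with differences of 0.41, 0.37 and 0.28, limma adjusted p of 0.381, 0.428 and 0.528, and no overlap between groups. With normexp background correction the difference of CK383817 was 0.19.

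The 8 lower probes of smallest p had differences from -0.53 to -0.22, against 0.28 to 1.51 for the 8 higher. This holds for the probes picked by p only, since the lowest difference among the 322 was -0.93, in BG079055. AV357293, a DDBJ EST, had levels of 1.73, 1.71, 1.57 and 1.69 in controls and of 1.39, 1.21, 1.09 and 1.33 in knockout hearts. The groups did not overlap, and the difference was -0.42 with an SE of 0.10 and a limma adjusted p of 0.277 (range 0.259 to 0.501). DV653238, a GenBank EST, had levels of 0.68, 0.57, 0.72 and 0.59 in controls and of 0.33, 0.44, 0.44 and 0.48 in knockout hearts. Here too the groups were apart, by a narrow gap, and the difference was -0.22 with an SE of 0.08 and a limma adjusted p of 0.565.

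The other lower probes of this kind were AF416735, AK196148, AA915284, BB633529, CA870816 and CF533449. Their differences were -0.36, -0.36, -0.53, -0.29, -0.25 and -0.35, with limma adjusted p between 0.602 and 0.660. Of these, CF533449 alone had groups that did not overlap, and without control replicate 3 its difference was -0.18. Without control replicate 1 the differences of BB633529 and AK196148 were -0.16 and -0.23, and without knockout replicate 4 that of AA915284 was -0.34.

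**Figure D3:**
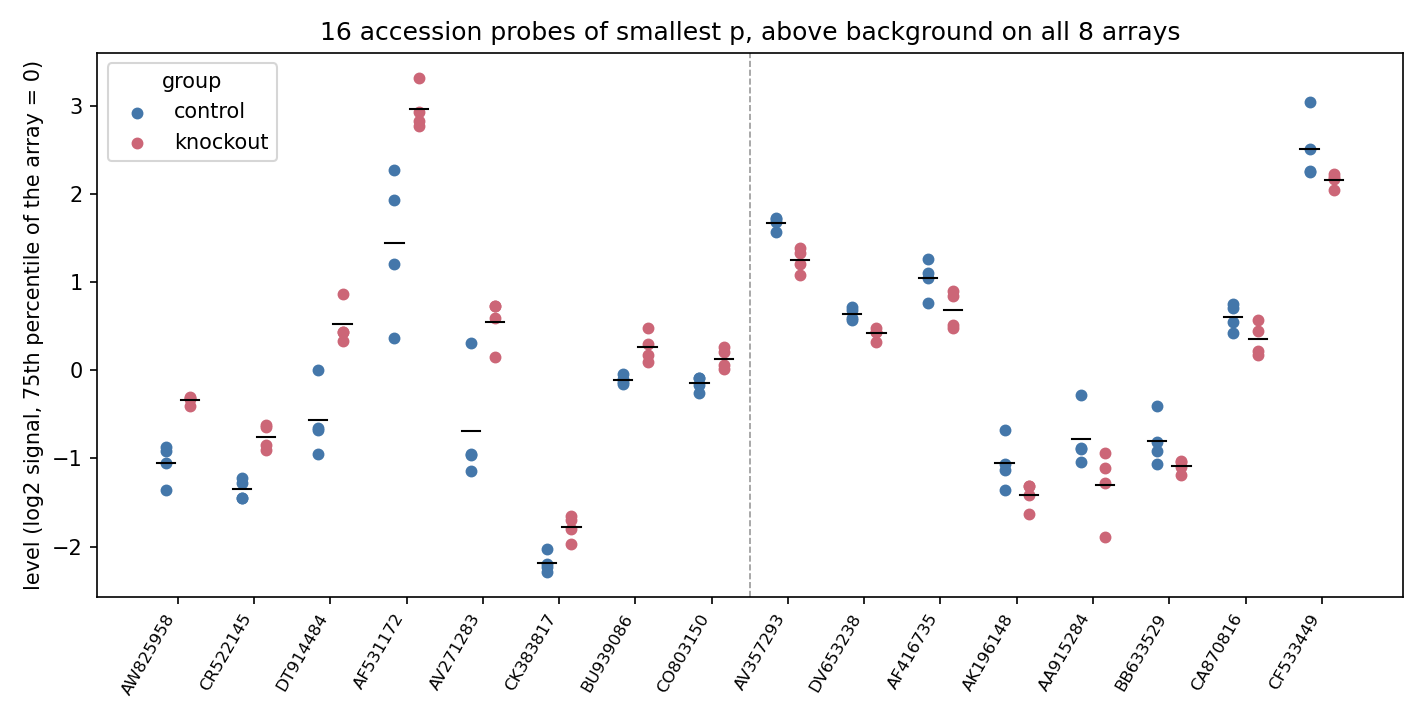
Levels (log2 signal, 75th percentile of the array at 0) of the 8 higher and the 8 lower accession probes of smallest p that were detected on all 8 arrays, separated by the dashed line. Each point is 1 heart, black bars are group means, and no probe passed the adjusted threshold. AF531172 shows 4 close knockout values above 4 scattered controls.

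Among tested accession probes not detected on all 8 arrays, sizes are uncertain, since part of their values lie in the background. CJ322887, a DDBJ EST, had levels of -2.54, -2.15, -2.46 and -2.61 in controls, 2 of them detected, and of -1.79, -1.76, -1.70 and -1.51 in knockout hearts, all detected. The groups did not overlap and the difference was 0.75 with a limma adjusted p of 0.113 (range 0.0707 to 0.455). With normexp background correction the difference was 0.33, and with values under an array's lowest detected signal raised to that signal it was 0.63.

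BY214431, also a DDBJ EST, was detected in all 4 knockout hearts but in no control heart, with levels of -4.57, -3.40, -3.12 and -2.65 in controls and of -1.70, -1.69, -1.91 and -1.84 in knockout hearts. The groups did not overlap. The control side was also set at the higher of its own value and the lowest detected signal of each array. The knockout mean was then 1.66-fold higher, which is not offered as a lower bound. Normexp background correction gave a smaller difference, but its offset shrinks differences, so it cannot decide whether this fold is a bound. The measured difference had a limma adjusted p of 0.250 (range 0.0597 to 0.517). Of the 392, 5 accession probes were detected in all 4 knockout hearts and no control heart, and 0 had the reverse pattern. Over all 27878 tested probes these numbers were 195 (0.699%) and 0, and such members pass the filter only through the group where they are detected, so nothing is read from the 5. CA559477, another of the 5, had a difference of 1.1 that turned to -0.33 when values were raised to the lowest detected signal, so its direction is not settled.

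The other higher probes of this kind were BG085481, BU962743, AA414516, AA073530 and BY331612, with differences of 0.52, 0.45, 0.72, 0.54 and 0.86 and limma adjusted p between 0.164 and 0.516. With normexp background correction, whose offset shrinks them, their differences were 0.20, 0.14, 0.32, 0.17 and 0.29. With values raised to the lowest detected signal that of AA073530 was 0.031 and that of BY331612 was 0.40. The measured difference of BY214431 was 1.65, and 0.64 and 0.73 under these settings. AU023603, a DDBJ EST, had the lowest difference of all tested accession probes. Its levels were -0.99, -0.19, -0.68 and -0.57 in controls and -1.41, -3.27, -0.96 and -2.68 in knockout hearts. Knockout replicates 2 and 4 were far below the controls and the other two were nearer to them, and the difference was -1.47 with an SE of 0.49 and a limma adjusted p of 0.524 (range 0.384 to 0.700). With normexp background correction it was -0.92.

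CB193518 and AA760039 had differences of -0.71 and -0.40 with groups that did not overlap and limma adjusted p of 0.571 and 0.533. With normexp background correction they were -0.43 and -0.23, with values raised to the lowest detected signal -0.44 and -0.25, and without knockout replicate 4 CB193518 had -0.42. AA666506, AA821863, AA017743, AI452155 and BY230763 completed the rule, with differences from -0.56 to -0.11 and limma adjusted p between 0.663 and 0.899. AA017743 had -0.015 without control replicate 1, where AI452155 turned to 0.24, and BY230763 turned to 0.048 and 0.021 without control replicates 3 and 4.

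Some accession probes differed far more between hearts of 1 genotype than between genotypes. Over the 322 detected on all 8 arrays the median range across hearts was 0.61 on the log2 scale. It exceeded 2 in 18 and stayed under 0.5 in 124. Over all 24341 probes detected on all 8 arrays the median range was 0.62. It exceeded 2 in 1196 of them and stayed under 0.5 in 8707.

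BY300015, a DDBJ EST, had the largest range, 4.05. Its levels were 1.23, -2.11, -1.98 and -1.86 in controls and 1.13, 1.85, 1.94 and -1.89 in knockout hearts. Control replicate 1 and knockout replicates 1, 2 and 3 were high, the other 4 hearts were low, and no heart lay between -1.86 and 1.13. All 8 spots were detected and none carried an outlier flag, and the error that the extraction software gave for them was 10% to 18.5% of the signal. The lowest detected signal was -2.65, -2.76 and -2.42 on control replicates 2, 3 and 4 and -2.26 on knockout replicate 4. The 4 low values thus lay not far above it, and the size of the range is uncertain. The difference between groups was 1.93 with an SE of 1.04 (limma adjusted p = 0.676).

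CB523987, a GenBank EST, was low in control replicates 1 and 4 and high elsewhere. Its levels were 0.45, 3.89, 3.65 and 1.20 in controls and 4.01, 4.09, 3.12 and 4.15 in knockout hearts. CR513841, an EMBL record, was high in knockout replicates 2 and 3. Its levels were 1.94, 2.17, 1.91 and 2.44 in controls and 2.21, 4.47, 4.65 and 2.95 in knockout hearts, and its groups overlapped at control replicate 4.

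CA585643, a GenBank EST, was high in 1 heart. Its level was 3.45 in control replicate 1 and between -0.17 and 0.66 in the other 7 hearts. EL606405, also a GenBank EST, was high in control replicates 3 and 4, with levels of -0.18, -0.23, 1.12 and 2.14 in controls and of -0.20, 0.02, -0.52 and 0.12 in knockout hearts. BG079055, another GenBank EST, was higher in control replicates 1 and 3, with levels of -0.99, -2.09, 0.40 and -2.10 in controls and between -2.42 and -1.97 in knockout hearts.

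AK135967, a cDNA record, varied in both groups, with levels of -0.49, 0.14, 1.81 and -0.46 in controls and of -1.78, -0.12, 0.92 and -1.28 in knockout hearts. Replicate 3 was the highest of each group. AF531172, described above, also belongs to these 8 most variable probes. Apart from AF531172, the groups overlapped in all of them, with limma adjusted p from 0.554 to 0.854.

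**Figure D4:**
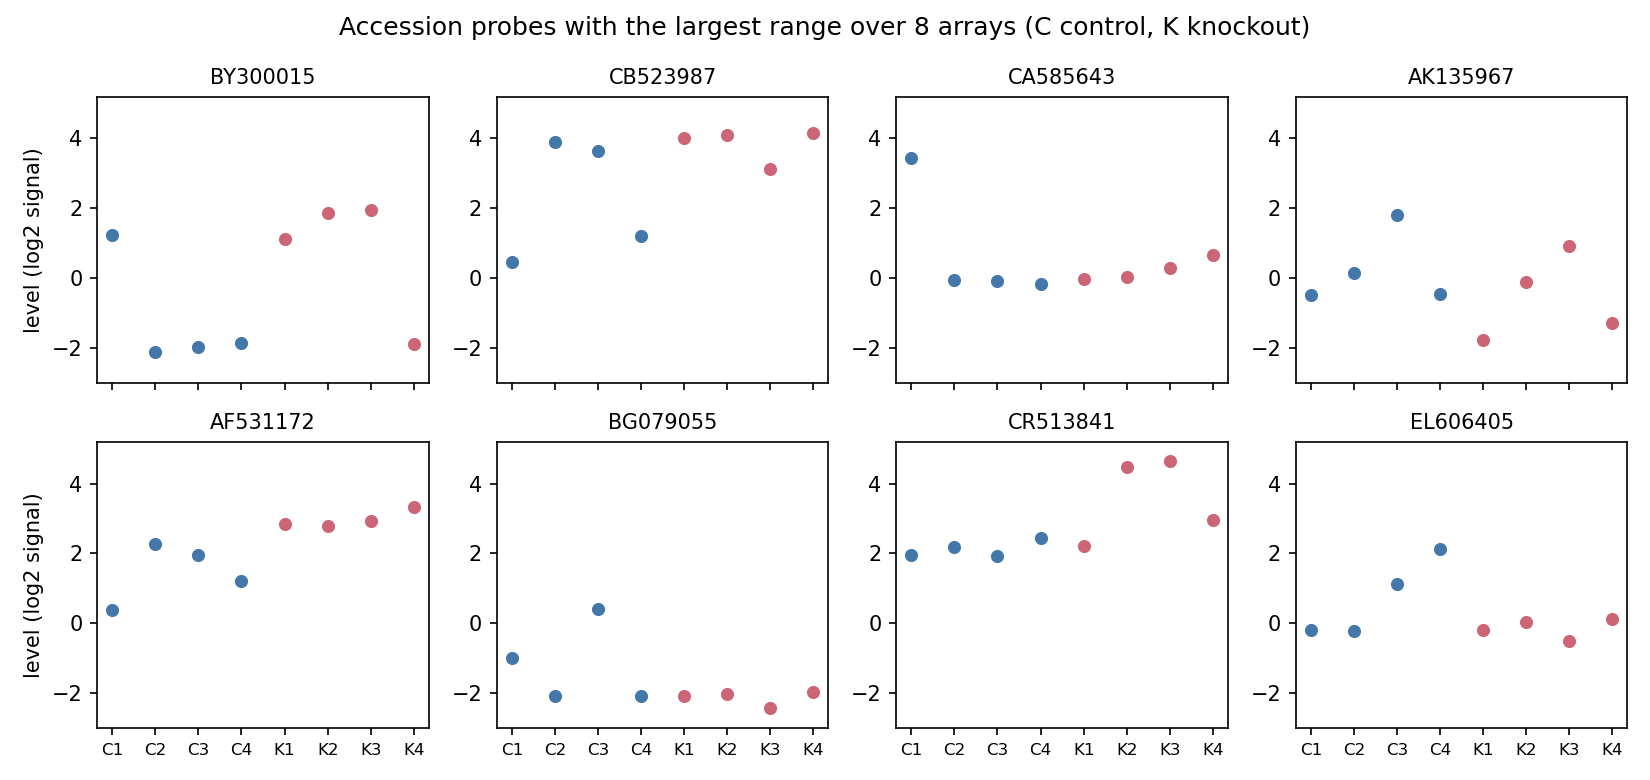
Level (log2 signal, 75th percentile of the array at 0) of the 8 accession probes with the largest range among those detected on all 8 arrays. Each point is 1 heart, controls C1 to C4 in blue and knockouts K1 to K4 in red. BY300015 takes 2 separate levels with hearts of both groups at each.

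Most members showed no such excursions. Of the 322, 282 had no heart more than 1 (log2) from the median of the other 7, 25 had 1 such heart and 15 had 2 or more. Control replicate 1 held the most, with 8 members above and 10 below (5.59%), against 1.24% to 3.11% on the other arrays. Over all probes detected on all 8 arrays it also held the most, 4.16%, against 1.22% to 3.78% elsewhere.

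A few accession probes shared nearly the same profile over the 8 hearts. They were chosen after the values were seen, from 51681 pairs of probes detected on all 8 arrays, so the correlations are descriptions across 8 arrays with no test. AV310809, a DDBJ EST, had levels of 4.52, 4.89, 5.54 and 4.07 in controls and of 3.17, 4.35, 5.39 and 3.88 in knockout hearts. DV653038, a GenBank EST, had levels of 4.50, 4.88, 5.77 and 4.19 in controls and of 3.11, 4.32, 5.51 and 4.02 in knockout hearts (Pearson r = 0.995 with AV310809). Both were highest in control replicate 3 and knockout replicate 3 and lowest in knockout replicate 1. BY452895 and BY419828 had a like profile with a smaller range, with r between 0.967 and 0.989 among BY452895, BY419828 and the other two. Their differences between groups, from -0.59 to -0.21, had limma adjusted p between 0.763 and 0.877.

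BY321897, CA586630 and DV653685 were low in control replicate 1. BY321897 had a level of -1.70 there and between -0.02 and 0.66 in the other 7 hearts. CA586630 had -0.52 there and 1.07 to 1.51 elsewhere, and DV653685 had 0.38 there and 1.56 to 2.10 elsewhere. The correlations among these 3 were 0.981 to 0.988, and 0.789 to 0.895 over the 7 arrays without control replicate 1. Whether any of these accessions comes from the same transcript was not analysed here, since the files give them no positions.

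**Figure D5:**
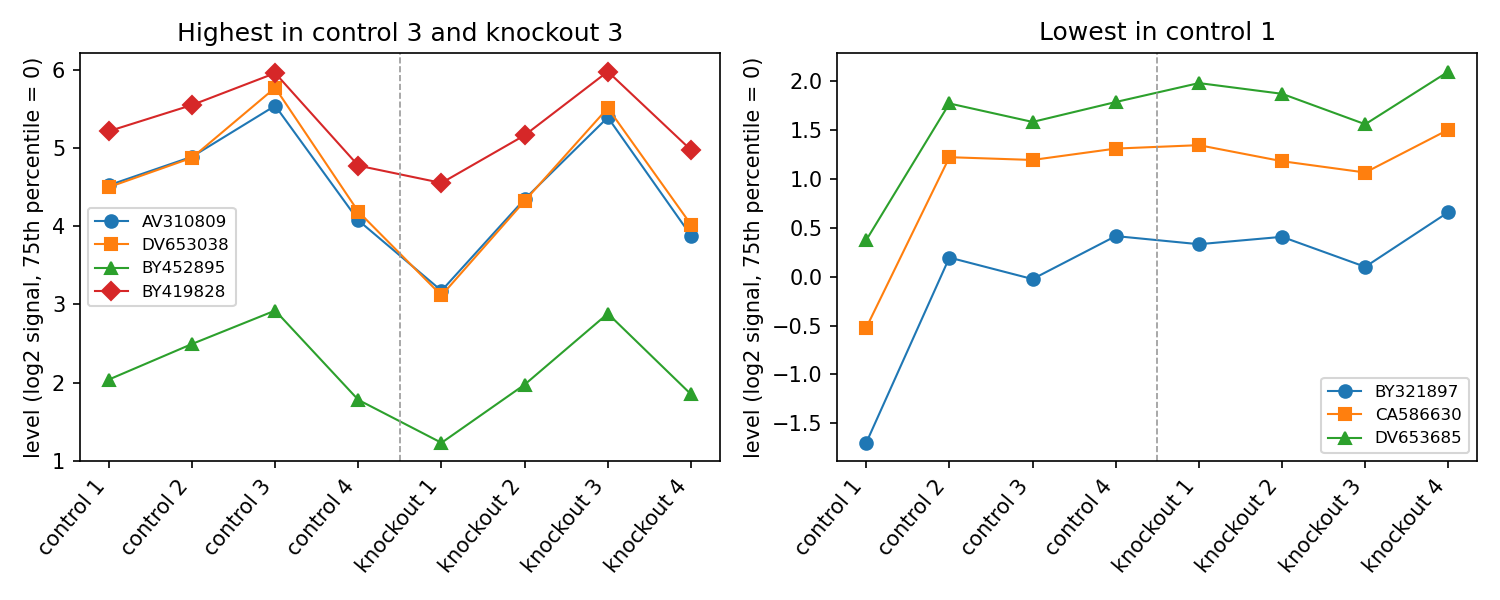
Levels (log2 signal, 75th percentile of the array at 0) of 4 accession probes highest in control replicate 3 and knockout replicate 3 (left) and of 3 accession probes lowest in control replicate 1 (right). Lines join the 8 hearts of 1 probe only as a guide, and the dashed line separates the groups.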

How the data were processed

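Per the labels' protocols, ribosomal RNA was removed from heart RNA and randomly primed, Cy3-labelled cRNA was hybridised to 1-colour Agilent arrays. The deposited spot intensity comes from Agilent Feature Extraction 11.0.1.1, per the submitters' processing notes. It is background-corrected without scaling between arrays, and the headers name build mm9. The authors' deposited table holds log2 values, scaled by a method not given in the sources used here, and none of the accession probes. From each array's log2 intensity, its 75th percentile (over 59709 probes that are not controls) was subtracted. Spots flagged as outliers and 20 negative-control sequences were left out. Probes with at least 3 usable arrays per group, detected on all usable arrays of the control or the knockout group, were tested with limma 3.58.1 in R 4.3.3 and Benjamini-Hochberg adjustment over all 27878, at 0.05. A fitted fold of a probe with values in the background is not a bound.

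The members, lists and rules were chosen with earlier results of these data known. The rule names called members, the 8 of smallest p per direction among those detected on all arrays and among the rest, the 12 of highest signal and the 8 of largest range. Probes shown for their shared profiles were chosen after their values were seen. The fit was tested on simulated data for this comparison with 27878 probes, 200 of them changed, and recovered 56% of changes of 1 and 91% of changes of 2 on the log2 scale, with 14 false calls among 161. The simulated noise was normal and independent, with each probe's own SD within groups. Single hearts standing apart, as in CA585643, were not modelled, so these rates may not hold for such probes. Alternatives were normexp with an offset of 50 on the median spot signal, other signal filters, median centring, quantile normalization, a percentile taken over the probes that all arrays detected, values raised to the detection limit, kept outlier flags, the replicate block, trended robust variances, the ordinary pooled test and each array left out. The labels make each array 1 mouse.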

Additional observations from a re-analysis of the deposited data

Results flagged for a closer look

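In 8 of 118 groups of 4 arrays, 1 heart stood far from the other 3 for the range of its group. Chance alone gives about 5.9, but several of these probes were chosen for their spread, so the 8 cannot be held against that number. Control replicate 1 was the heart in 5 of the 8. Of these, CA586630 and DV653685 were chosen after their values were seen, for a shared profile low in that heart. The 5 are thus no measure of that heart. There CA585643 reached 3.45, with the remaining controls at -0.17 to -0.07, and BY300015 was 1.23 against -2.11 to -1.86. AI452155 was -0.66 in the same heart against -2.56 to -2.35. CA586630 was -0.52 there against 1.20 to 1.31, and DV653685 was 0.38 against 1.59 to 1.79. In control replicate 3, AV271283 was 0.31 against -1.14 to -0.95, and AA666506 was -2.56 against -1.62 to -1.55. CB523987 in knockout replicate 3 was 3.12, and the remaining knockout hearts had 4.01 to 4.15.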

How the results depend on the processing

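The number of accession probes called stayed at 0 in all but 2 of the 20 alternatives and at an adjusted p under 0.1, and was 0 to 1 when each array was left out, with AV271283 called without control replicate 3 and DT914484 without control replicate 4. The number at an unadjusted p under 0.05 in limma was 42 of 392. With only probes detected on all arrays it was 24 of 323. With probes detected on at least 1 array it was 86 of 819, and without a signal filter 114 of 1209. All tested probes under these 3 filters gave 952 higher and 684 lower of 24366, 2853 and 939 of 46929, and 2680 and 1796 of 59709. The main test gave 1498 and 749 of 27878. When each array was left out, 35 to 52 accession probes had such a p. The 52 were among 500 tested without knockout replicate 4, where all 33132 tested probes gave 1870 and 488. Of 32 named differences, 29 kept their sign in each alternative in which they were tested. CA559477 became -0.33 with values raised to the detection limit, AI452155 ran from -0.39 to 0.24 when each array was left out (0.24 without control replicate 1), and BY230763 from -0.33 to 0.048 (0.048 and 0.021 without control replicates 3 and 4). The labels do not say that replicate numbers pair the hearts, but on all 8 arrays the code for array position ends in that number. Correlations of deviations from the group mean were 0.06, -0.05, 0.36 and 0.24 for numbers 1 to 4. For unequal numbers they ran from -0.292 to 0.087, and centring within a group by itself makes some of them negative. Numbers 3 and 4 had the highest values, and whether the numbers pair the hearts was not tested. With the replicate block 0 accession probes were called and 45 of 392 had an unadjusted p under 0.05 in limma. These were 34 higher and 11 lower, a split that the signal filter can tilt. Among those detected on all 8 arrays they were 18 and 8, and over all 27878 tested probes 1675 and 1208. The authors' values gave no result, since that table holds none of these probes. The number of arrays, and the signal over background of the dimmer probes, limit the precision.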
